A study of Homo sapiens with 12 samples.

Results

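The genes described here are 56 homeobox genes outside the HOX clusters that pattern the embryo: 6 DLX, 11 LIM homeobox (LHX, LMX1 and ISL2), 12 NKX genes, the 5 genes SIX2 to SIX6, 7 OTX, OTP, PITX and ALX genes, and 15 EMX, VAX, EN, GBX, MSX, BARHL, BARX and TLX genes. They were chosen by name, with earlier results of these data known, out of 20033 protein-coding genes of GENCODE release 44, and each of the 56 names matched 1 gene. H3K27me3, the trimethylation of lysine 27 of histone H3, was measured by chromatin immune precipitation and sequencing (ChIP-seq) in SH-SY5Y, a neuroblastoma cell line of human origin with neuron-like features. The Tau expressing (WT) cells were the parental line, and 231K and 232P were 2 Tau knock-out (Tau-KO) lines derived from it, with 2 biological replicates for each of the 3 genotypes and no treatment. Whether each Tau-KO line is a single clone is not given in the sources used here. The 6 ChIP samples had 1 peak list each, and the 6 input samples had none and were not analysed here.

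Homeobox proteins are transcription factors that bind DNA through a homeodomain and switch on regional programmes, such as forebrain, midbrain, spinal cord, heart or jaw identity, in the embryo. In cells outside the region in which such a gene acts, Polycomb repressive complex 2 (PRC2) methylates lysine 27 of histone H3 over the gene, and PRC1 binds this mark and keeps the gene silent. Patterning genes with CpG-rich start regions are textbook targets of PRC2, and a gene that the cell uses is usually free of the mark.

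A gene was said to have a TSS mark in a sample when a peak touched a window of 1 kb to either side of an annotated transcription start site. A region mark was a peak anywhere on the gene or on these windows. Pairs of values are given in the order of replicates 1 and 2 throughout. The lists held 285826 and 222191 peaks in the WT replicates, 271413 and 212347 in 231K, and 147118 and 199677 in 232P. The relative depth, recovered from the local background and set to 100% in WT replicate 1, was 66.6% in WT replicate 2, 94.8% and 68.7% in 231K, and 68.1% and 56.9% in 232P. The shallower lists can miss a mark that a deeper list shows, so a gene without a peak may carry a mark too weak for the peak caller at its depth.

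The list of 232P replicate 1 stood apart from the other 5. Its peaks covered 70.3 Mb, against 197 to 290 Mb in the other lists, and their median GC content was 44.5%, against 39.3% to 40.8%. Peaks of over 60% GC made up 1.203% of this list and 0.0125% to 0.189% of the others. Results that rest on this library are therefore given with and without it. The replicate numbers differed in the narrowest peak listed, which was 175 to 179 bp in replicates 1 and 240 to 262 bp in replicates 2, so values within each replicate number are given as well.

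The promoters of 6 genes with different patterns of the mark are shown from the RefSeq table (build GRCh38.p14, the assembly of hg38), as the 250 bases before the start, with each CG dinucleotide in capitals. CG is the motif counted, and it reads the same on both strands. Of 15345 protein-coding promoters in the table, 96.9% held at least 1 CG in these 250 bases, with a median of 17, and the 38 homeobox genes that the table holds had a median of 23. BARHL2 (chr1:90717303-90717552, minus strand) had a TSS mark in all 6 samples, NKX2-8 (chr14:36582615-36582864, minus strand) lost its TSS mark in 231K, and DLX2 (chr2:172102901-172103150, minus strand) gained one in 232P. EN2 (chr7:155457879-155458128, plus strand) was marked over its body and changed at its start from sample to sample, LMX1B (chr9:126613678-126613927, plus strand) had a TSS mark in 232P replicate 1 alone, and SIX6 (chr14:60508896-60509145, plus strand) was free of peaks.
BARHL2: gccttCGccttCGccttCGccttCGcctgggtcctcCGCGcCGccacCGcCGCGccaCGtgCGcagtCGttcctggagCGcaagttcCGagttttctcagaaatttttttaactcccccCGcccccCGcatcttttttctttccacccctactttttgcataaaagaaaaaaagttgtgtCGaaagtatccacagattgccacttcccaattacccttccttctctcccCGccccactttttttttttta
NKX2-8: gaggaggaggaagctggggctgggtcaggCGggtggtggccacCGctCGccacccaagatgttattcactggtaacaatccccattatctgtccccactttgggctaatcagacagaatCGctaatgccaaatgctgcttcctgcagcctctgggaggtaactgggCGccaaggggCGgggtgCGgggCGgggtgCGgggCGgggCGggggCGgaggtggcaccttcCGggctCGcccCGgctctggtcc
DLX2: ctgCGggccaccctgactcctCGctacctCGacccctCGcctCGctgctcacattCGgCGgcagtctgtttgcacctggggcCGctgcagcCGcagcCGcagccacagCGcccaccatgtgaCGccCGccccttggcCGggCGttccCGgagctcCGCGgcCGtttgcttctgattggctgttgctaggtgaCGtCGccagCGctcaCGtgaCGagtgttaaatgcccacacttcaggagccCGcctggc
EN2: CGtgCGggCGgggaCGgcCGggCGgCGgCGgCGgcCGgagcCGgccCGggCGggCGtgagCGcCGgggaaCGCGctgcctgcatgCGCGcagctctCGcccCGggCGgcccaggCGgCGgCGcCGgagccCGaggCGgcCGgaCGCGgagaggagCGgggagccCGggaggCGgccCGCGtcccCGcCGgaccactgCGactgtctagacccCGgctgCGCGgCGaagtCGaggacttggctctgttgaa
LMX1B: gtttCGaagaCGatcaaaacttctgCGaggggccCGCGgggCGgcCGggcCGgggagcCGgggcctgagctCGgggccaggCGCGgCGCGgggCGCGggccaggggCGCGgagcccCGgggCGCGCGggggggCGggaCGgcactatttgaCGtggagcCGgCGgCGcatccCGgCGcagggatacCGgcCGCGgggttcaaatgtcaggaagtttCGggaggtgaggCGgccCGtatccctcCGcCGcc
SIX6: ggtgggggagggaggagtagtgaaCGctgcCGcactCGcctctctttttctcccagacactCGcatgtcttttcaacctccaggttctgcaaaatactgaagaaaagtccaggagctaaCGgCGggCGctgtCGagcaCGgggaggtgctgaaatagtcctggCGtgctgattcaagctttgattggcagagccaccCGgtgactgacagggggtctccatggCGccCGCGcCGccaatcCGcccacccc
The sequences held 19 CG in BARHL2, 15 in NKX2-8, 25 in DLX2, 45 in EN2, 38 in LMX1B and 16 in SIX6. Peaks lay over 37 and 42 of the 250 bases of BARHL2 in WT replicates 1 and 2 and over 116 bases in 232P replicate 1. No peak of any sample reached the 250 bases printed for the other 5 genes, whether or not the gene was marked further out.

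Most of the homeobox genes carried H3K27me3 marks in SH-SY5Y cells of all 3 genotypes. A TSS mark was present on 38 and 37 of the 56 genes in the WT replicates, on 35 and 34 in 231K, and on 41 and 34 in 232P. Over all protein-coding genes the share with a TSS mark was 18.2% and 18.4% in WT, 16.7% and 18.3% in 231K, and 14.5% and 15.7% in 232P. The same 30 homeobox genes had a TSS mark in all 6 samples, against 11.4% of all genes, and these 30 also made up the genes marked in all 5 samples other than 232P replicate 1. Of the rest, 12 had a TSS mark in some samples, against 10.6% of all genes, and 14 in none, against 78.1%. A TSS mark could lie at any annotated start and need not lie at the main one. Among the 30, the peak nearest to the main start of LHX3 lay 3442 to 3774 bp away over the 6 samples. For EMX1 it lay within 1 kb in 232P replicate 1 alone. A region mark in all 6 samples was found on 39 of the 56, against 16.5% of all genes. With peaks of a -log10 q-value of at least 5 only, 14 of the 56 had a TSS mark in all samples, and none had 50% of its start site windows covered in all samples.

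The families differed in how many genes carried the mark. None of the 5 genes SIX2 to SIX6, of eye, muscle and kidney development, had a TSS mark in any sample, and 3 of them had no peak anywhere. Of the 11 LIM homeobox genes, which specify neuron classes and parts of the limb and pituitary, 8 had a TSS mark in all 6 samples. The count was 6 of 12 for the NKX genes of ventral neural tube, heart and gut, 3 of 6 for the DLX genes of forebrain interneurons and the jaw, and 10 of 15 for the EMX to TLX group. Of the 7 OTX, OTP, PITX and ALX genes, 3 had a TSS mark in all 6 samples. These counts describe small families and were not tested.

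**Figure D1:**
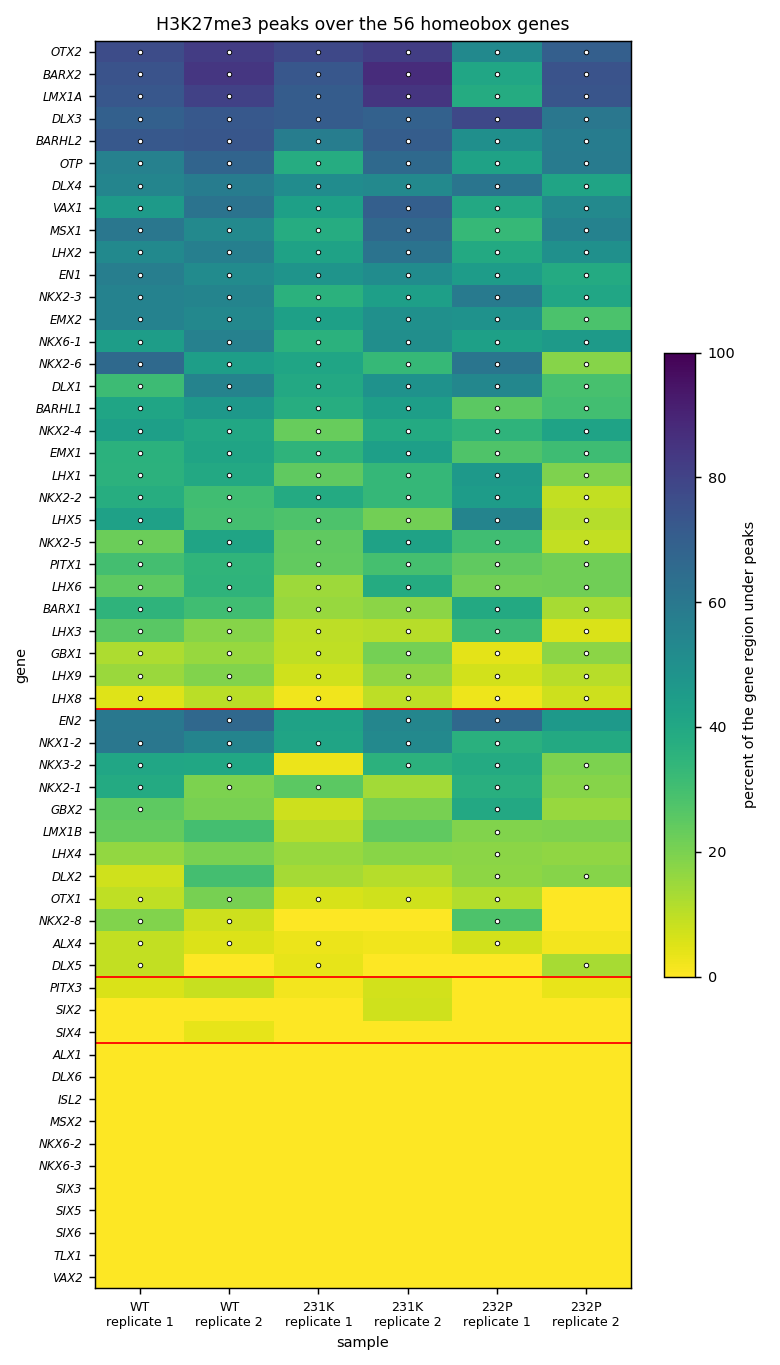
Percent of each gene region (gene and 1 kb on each side of each start site) under H3K27me3 peaks for the 56 homeobox genes (rows) in the 6 samples (columns), with a dot where the gene had a TSS mark. Red lines part the 30 genes with a TSS mark in all samples, the 12 with one in some, the 3 with a peak elsewhere only and the 11 without any peak.

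Where the mark was present, its peaks ranked high in their own lists. The best peak of a homeobox gene (the one with the highest -log10 q-value on the gene region) had a median percentile of 97.8 and 98.6 in the WT replicates, 97.1 and 98.6 in 231K, and 97.9 and 97.2 in 232P. For the other genes with a region mark, the medians were 89.5 and 89.4 in WT, 89.2 and 89.7 in 231K, and 82.9 and 87.5 in 232P. The median for HOX cluster genes with a region mark, the best known PRC2 targets, was 99.8 in WT replicate 1 and 231K replicate 1 and 99.9 in WT replicate 2, so by this median the homeobox genes outside the clusters stood between the HOX genes and the rest. The median fold enrichment of the best peak over the local background was 6.75 and 7.57 in WT, 6.76 and 8.51 in 231K, and 6.51 and 6.43 in 232P. In this value 231K overlapped WT, and both 232P samples lay below both WT samples.

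Among the 39 genes with a region mark in all samples, DLX4 (chr17:49968588-49974959), a distal-less gene known from the placenta, had the highest mean fold enrichment. Its best peak stood at a fold enrichment of 9.13 and 13.6 in WT, 11.9 and 10.6 in 231K, and 8.77 and 11.3 in 232P, and all 3 genotypes overlapped. LHX8 (chr1:75128434-75161533), which is needed for cholinergic neurons of the basal forebrain, had the lowest, with 3.51 and 5.46 in WT, 3.69 and 5.38 in 231K, and 5.97 and 4.53 in 232P. The -log10 q-values of DLX4 ranged from 13.1 to 29.1 and those of LHX8 from 2.66 to 6.70, so the weakest gene of the group passed the peak caller's threshold in each sample but lay near a -log10 q-value of 5 that was tried as a stricter one.

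The marks formed domains of very different width. Peaks 1 kb or less apart were joined, and the bases in domains that touched a start site window were summed for each gene. LMX1A (chr1:165201867-165356715, minus strand), a factor of midbrain dopamine neurons and the roof plate, had the widest domains, with 71972 and 99731 bp in the WT replicates, 99779 and 304540 bp in 231K, and 17811 and 85267 bp in 232P. The value of 231K replicate 2 stood far above the others and that of 232P replicate 1 far below, and the remaining 4 lay close together. BARX2 (chr11:129375848-129452279, plus strand), a gene of muscle and epithelial development, came next, with 56455 and 67807 bp in WT, 61347 and 108553 bp in 231K, and 9764 and 44204 bp in 232P. Both 232P samples lay below both WT samples for BARX2, and 231K overlapped WT. The domain of OTX2 (chr14:56799905-56816693, minus strand), which specifies forebrain and midbrain, kept nearly the same width throughout, from 14473 bp in 232P replicate 2 to 17705 bp in WT replicate 2.

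The other genes among the 10 widest were NKX2-6, NKX6-1, MSX1, DLX4, BARHL2, EN1 and EMX1, with means over the 6 samples of 26783 bp in NKX2-6 to 11849 bp in EMX1. BARHL2, a gene of retinal and spinal neurons, had 16070 and 37390 bp in WT, 8808 and 9734 bp in 231K, and 387 and 8841 bp in 232P, so that both Tau-KO lines lay below both WT samples. Most homeobox domains were narrower. The median over the homeobox genes with a TSS mark was 7004 and 9179 bp in WT, 4626 and 8768 bp in 231K, and 6190 and 3088.5 bp in 232P. For the other genes with a TSS mark it was 6080 and 8225 bp in WT, 5866 and 9427 bp in 231K, and 2219 and 5125 bp in 232P. The homeobox median was the higher in WT and in 232P replicate 1 and the lower in the remaining 3 samples. Widths are given as a description and were not tested between genotypes.

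**Figure D2:**
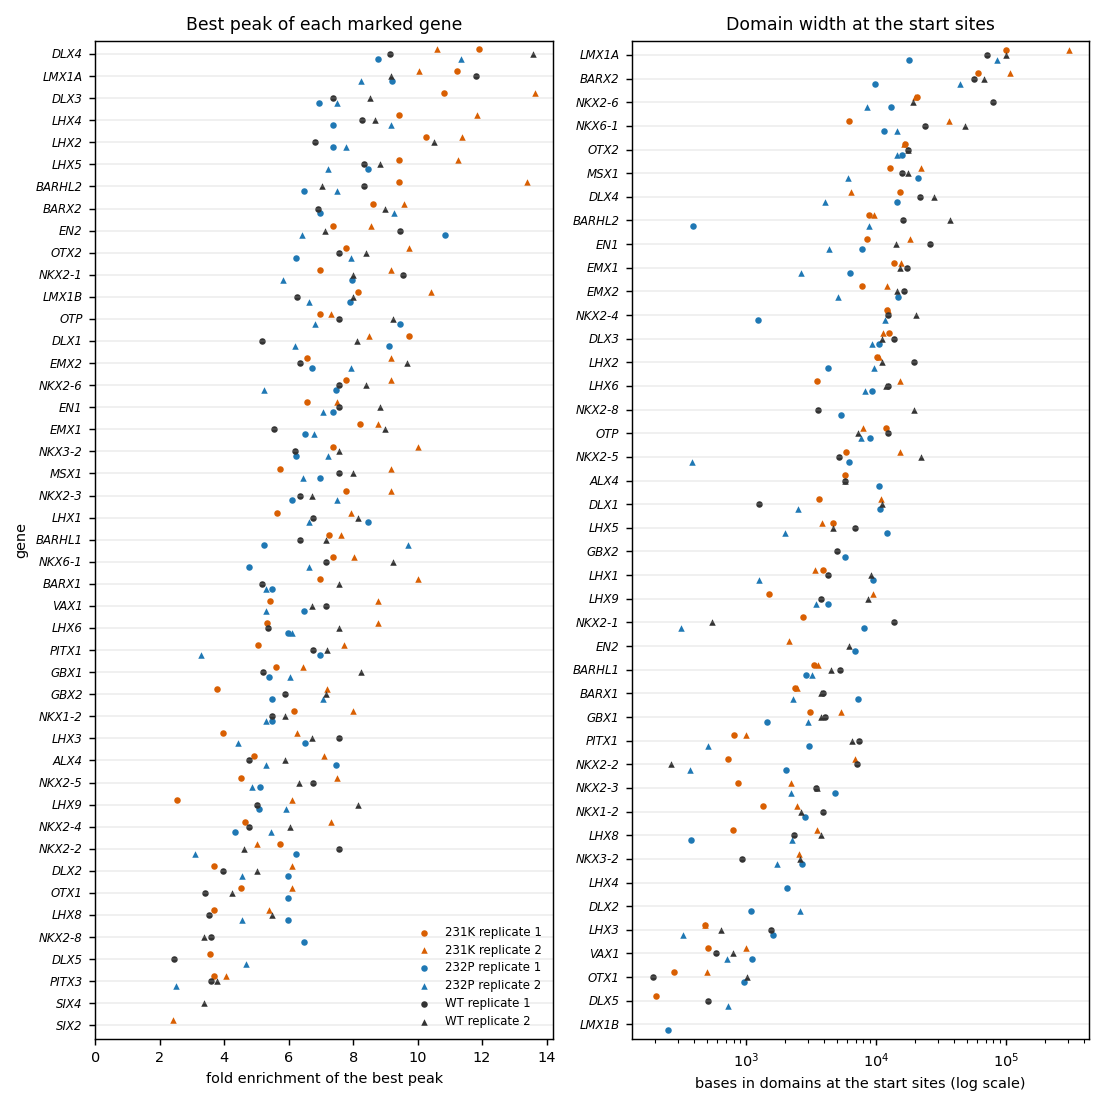
Left, fold enrichment of the best peak for each homeobox gene with a region mark, ordered by the mean over the samples with one. Right, bases in domains at the start sites (log scale) for each gene with a TSS mark, with circles for replicate 1, triangles for replicate 2 and colours for the genotypes. DLX4 is the highest on the left, and LMX1A and BARX2 are the widest on the right, with 232P replicate 1 at 17811 and 9764 bp.

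Some homeobox genes lie side by side. DLX1 and DLX2, which act together in forebrain interneurons, are 9.76 kb apart, DLX3 and DLX4 are 15.0 kb apart, and DLX5 and DLX6 are 9.36 kb apart. The other neighbours were NKX2-1 and NKX2-8 (58.9 kb), NKX2-2 and NKX2-4 (113 kb), SIX2 and SIX3 (59.1 kb) and SIX4 and SIX6 (197 kb). In 3 of these 7 pairs (DLX5 and DLX6, SIX2 and SIX3, and SIX4 and SIX6) at least 1 gene had no TSS mark in any sample, so no domain could join their starts. In the other 4 pairs no joined domain reached the start site windows of both genes in any sample. DLX1 had a TSS mark in all 6 samples, while its neighbour DLX2 had one in the 232P samples alone. DLX3 and DLX4 were both marked in all samples, and DLX6 was free while DLX5 had a TSS mark in 3 samples.

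Over these genes the peaks lay on both sides of the start site rather than on it. For the 43 homeobox genes with a region mark in at least 2 samples, peaks covered on average 18.0% and 18.1% of the 500 bp on each side of the main start in the WT replicates, 11.7% and 15.2% in 231K, and 20.1% and 12.8% in 232P. At 3 to 5 kb from the start they covered 55.6% and 59.3% in WT, 44.8% and 56.5% in 231K, and 43.1% and 45.6% in 232P. The share at the start was thus 0.323 and 0.305 of that at the flank in WT, 0.262 and 0.270 in 231K, and 0.467 and 0.281 in 232P. Coverage at the start was below that of the flank for 37 of the 43 genes in both WT samples, for 35 and 38 in 231K, and for 32 and 37 in 232P. Among the 4765 other genes with a region mark in at least 2 samples, this share was 44.6% and 48.0% in WT, 45.3% and 49.3% in 231K, and 32.5% and 46.4% in 232P. Genes with equal coverage at start and flank are not counted as lower, and in WT replicate 1 the other genes had 2125 lower and 1363 higher.

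**Figure D3:**
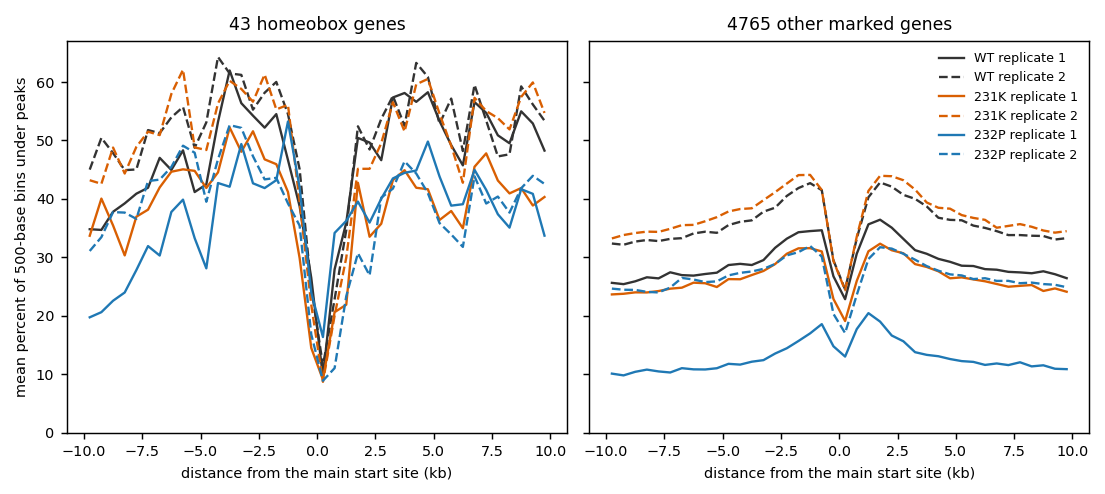
Mean percent of 500-base bins under peaks against the distance from the main start site in kb (minus is upstream), for the 43 homeobox genes (left) and the 4765 other genes (right) with a region mark in at least 2 samples, with 1 line per sample. At the start the homeobox genes dip from flanks of 43.1% to 59.3% to between 11.7% and 20.1%.

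The ratio of start to flank went with the GC content of the start in the other genes. The ratio of start to flank over all 4765 other genes with a region mark in at least 2 samples was higher, at 0.838 and 0.725 in WT, 0.768 and 0.689 in 231K, and 1.10 and 0.671 in 232P. Among 1966 of them with a start of at most 49.9% GC it was above 1 in all 6 samples, from 1.09 to 1.48. The homeobox genes had GC-rich starts, with a median of 61.8% GC in the 1 kb on each side of the main start against 55.97% over all genes, and 28 of the 56 were among the 5039 genes with a start of at least 61.6% GC. Among those with a region mark in at least 2 samples, the ratio for 23 homeobox genes was 0.217 and 0.148 in WT, 0.101 and 0.0913 in 231K, and 0.267 and 0.109 in 232P. For 976 other genes with such GC-rich starts it was 0.149 and 0.104 in WT, 0.0964 and 0.0818 in 231K, and 0.404 and 0.0529 in 232P. By this ratio of means, the dip was as deep at other genes of this GC content, apart from 232P replicate 1, the library with the GC-rich peaks, where the homeobox genes had the lower ratio. Gene by gene, 21 of the 23 homeobox genes had less coverage at the start than at the flank in WT replicate 1, and 1 had more. Of the 976 other genes with such starts, 538 had less and 62 more, and the rest had the same value at both. Where the start had 55.97% to 61.57% GC, the ratio for 14 homeobox genes was 0.281 and 0.250 in WT, 0.212 and 0.241 in 231K, and 0.570 and 0.192 in 232P. For 877 other genes it was 0.499 and 0.343 in WT, 0.317 and 0.282 in 231K, and 0.893 and 0.192 in 232P. In this GC range the homeobox ratio was the lower, except in 232P replicate 2, where the ratios were nearly the same. What part base composition in the libraries has in the dip was not tested.

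The 12 genes with a TSS mark in some samples include several whose bodies were marked throughout. EN2, an engrailed gene of the midbrain and hindbrain boundary, had 60.1% and 66.1% of its region under peaks in the WT replicates, 42.5% and 54.0% in 231K, and 66.3% and 46.0% in 232P. The peak nearest to its main start lay 1009 and 940 bp away in WT, 1022 and 924 bp in 231K, and 898 and 2290 bp in 232P. The 3 samples within 1 kb were those with a TSS mark, so for EN2 the call turned on the edge of the window. LMX1B, which patterns the dorsal limb and serotonin neurons, had 10.7% to 29.99% of its region under peaks and a nearest peak at 1521 to 2121 bp in the 5 samples without a TSS mark, and at 852 bp in 232P replicate 1. LHX4, a gene of pituitary and motor neuron development, had its nearest peak at 1300 to 1408 bp in the same 5 samples and at 970 bp in 232P replicate 1.

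A TSS mark in 232P replicate 1 and in no other sample was found for LMX1B and LHX4 alone among the 56 genes, against 0.379% of all genes. Their starts were GC-rich, at 72.0% and 69.7%. GBX2, which sets up the anterior hindbrain, had a TSS mark in WT replicate 1 and 232P replicate 1, and the start of GBX2 had 69.6% GC. Of the genes with a start of at least 61.6% GC, 22 of the 28 homeobox genes had a TSS mark in 232P replicate 1, against 15 to 19 in the other samples. Over all genes with such starts, the share with a TSS mark was 12.8% in 232P replicate 1 and 10.3% to 13.4% in the other samples. Over all genes with a start of at most 49.9% GC, it was 22.3% in 232P replicate 1 and 29.6% to 33.1% in the other samples. Without this library, 16 of the 56 genes had no TSS mark in any sample. The part that the GC content of this library has in these calls was not tested.

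Of the other genes with a TSS mark in some samples, ALX4 (a gene of skull and limb development) had one in both WT samples, 231K replicate 1 and 232P replicate 1. NKX1-2 and OTX1, a gene of the cortex and inner ear, lacked it in 232P replicate 2 alone. NKX2-1, the factor of thyroid, lung and ventral forebrain, lacked it in 231K replicate 2, and NKX3-2, a gene of cartilage and the spleen, in 231K replicate 1. DLX5, a gene of the jaw and bone, had a TSS mark in WT replicate 1, 231K replicate 1 and 232P replicate 2, with at most 13.1% of its region under peaks. A region mark in all 6 samples without a TSS mark in all 6 was found on 9 of the 56 genes, against 5.09% of all genes. All 9 were among these 12, and the exceptions were DLX5, NKX2-8 and OTX1.

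The 11 genes without any peak on the gene or its start site windows in any sample were ALX1, DLX6, ISL2, MSX2, NKX6-2, NKX6-3, SIX3, SIX5, SIX6, TLX1 and VAX2, against 72.8% of all genes. ISL2 specifies motor neurons, SIX3 and SIX6 the forebrain and eye, VAX2 the ventral retina, TLX1 the spleen, NKX6-2 ventral neural tube cells and oligodendrocytes, and MSX2 and ALX1 the skull and face. The distance from the gene region to the nearest peak differed widely among them. For SIX6 it was 126668 to 128456 bp over the 6 samples, for SIX3 41438 to 50540 bp, and for ALX1 1588023 to 2957497 bp. For MSX2 it ranged from 297 to 130619 bp, for TLX1 from 1978 to 73129 bp and for NKX6-2 from 2488 to 29868 bp, so these 3 were free in all samples but close to a peak in at least 1. At NKX6-2 the near peak was in 232P replicate 1 alone, and without this library the distance was 29424 to 29868 bp. The lists do not measure transcription, and whether these genes were used in the cells was not tested.

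PITX3, SIX2 and SIX4 had no TSS mark but a peak elsewhere on the gene in at least 1 sample. PITX3, a gene of midbrain dopamine neurons and the lens, had 5.66% and 8.41% of its region under peaks in WT, 1.61% and 6.70% in 231K, and 0% and 3.19% in 232P. SIX2, which keeps kidney progenitors, had a peak over 7.19% of its region in 231K replicate 2 alone, and SIX4 over 3.57% in WT replicate 2 alone. The starts of the 11 free genes had a median GC content of 60.02%, against 61.0% for the 30 with a TSS mark in all samples and 63.6% for the 12 with one in some. The free genes thus had starts of nearly the same GC content as the 30. The median number of CG within 1 kb of the main start was 117 for the free genes, 135 for the 30 and 155 for the 12. The ranges overlapped, and the difference was not tested. The local background of the peaks within 1 Mb had a median of 1.05 times the genome-wide floor for the free genes that have such peaks and 1.03 for the 39 with a region mark in all samples.

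The comparison of each Tau-KO line with WT asks whether the loss of Tau went with a loss of H3K27me3 marks, and both comparisons share the WT samples. Both WT samples had a TSS mark on 36 of the homeobox genes, of which 1 lost it in both 231K samples, against 2.52% of all such genes, and 0 lost it in both 232P samples, against 7%. Of the 17 with a TSS mark in neither WT sample, 0 gained it in 231K, against 0.206%, and 1 gained it in 232P, against 0.0813%. In 232P replicate 2 taken alone, 4 of the 36 lacked the mark (ALX4, NKX1-2, NKX2-8 and OTX1), against 14.2% of all such genes. The counts of lost marks were near or below the shares over all genes. These small counts moved with single libraries. Leaving out WT replicate 2 or 231K replicate 2 gave 2 lost in 231K, leaving out 231K replicate 1 gave 3, and leaving out 232P replicate 2 gave 3 gained in 232P.

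The gene that lost its TSS mark in 231K was NKX2-8, a homeobox gene next to NKX2-1 on chromosome 14 (chr14:36580004-36582614, minus strand). Peaks covered 19.1% and 7.59% of its region in the WT replicates, 0% and 0% in 231K, and 28.0% and 0% in 232P. Both 231K samples lay below both WT samples, while the 232P samples lay on either side of them. Its best peak in the WT samples reached a fold enrichment of 3.57 and 3.36 and a -log10 q-value of 2.58 and 2.41, which are low for this group of genes. The peak nearest to its main start lay 405 and 389 bp away in WT, 1529 and 1995 bp in 231K, and 343 and 2198 bp in 232P.

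The gene that gained a TSS mark in 232P was DLX2 (chr2:172099438-172102900, minus strand). Its region mark was present in all 6 samples, with 7.15% and 29.8% of the region under peaks in WT, 13.6% and 11.0% in 231K, and 16.8% and 18.1% in 232P. The values of both Tau-KO lines lay between those of the WT samples. The peak nearest to its main start lay 2415 and 1217 bp away in WT, 1556 and 2232 bp in 231K, and 763 and 585 bp in 232P. In 232P replicate 1 the domain at the start lay inside the gene (chr2:172101042-172102137). In 232P replicate 2 it lay upstream of the gene (chr2:172103485-172106061), so the gain rested on different peaks in the replicates. With a start site window of 2.5 kb, neither the loss of NKX2-8 nor the gain of DLX2 was counted.

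The percent of each gene region under peaks was compared with limma over 4808 genes with a region mark in at least 2 samples, which 43 of the 56 homeobox genes passed. The other 13 were the 11 free genes, SIX2 and SIX4. No gene was called in either line at an adjusted p under 0.05 (Benjamini-Hochberg), lower or higher in 231K (0% and 0% of the genes tested) or lower or higher in 232P (0% and 0%). At an unadjusted p under 0.05 there were 162 genes in 231K and 541 in 232P, and 0 of the homeobox genes in either line. The smallest adjusted p of a homeobox gene was 1 in 231K and 0.44 in 232P.

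In 231K the homeobox genes nevertheless lay mostly below WT. The median difference was -5.15 percentage points over the 43 homeobox genes and -0.17 over all 4808 genes, and 34 of the 43 were negative, against 54.8% of all genes tested. On the log2 scale of the highest fold enrichment, 17 of the 43 were negative, against 41.8% of all genes tested, and the medians were 0.09 and 0.05. Both 231K samples lay below both WT samples for 18 of the 43, against 14.2% of all genes tested, and above both for 0, against 5.35%. Of the 31 HOX cluster genes tested, 16 lay below both WT samples in this way and 0 above, so the pattern was not particular to the 43. The share of all genes with both 231K samples below both WT samples was 10.47% where the start had at most 49.9% GC and 17.1% where it had at least 61.6%. Within replicate number 1 the median difference of the homeobox genes was -8.33, with 37 of 43 lower, beside -1.13 and 64.8% lower over all genes tested. Within replicate number 2 it was -2.61, with 31 of 43 lower, beside 0.37 and 40.3% over all genes tested. The direction was the same in both pairs of samples, and the size was larger in replicate number 1. Without 231K replicate 1 the homeobox median was -2.40, beside 2.31 over all genes tested, and without 231K replicate 2 it was -8.86, beside -4.34. Leaving out WT replicate 1 gave -6.78, beside -2.24, and leaving out WT replicate 2 gave -3.38, beside 0.73. Quantile normalization gave -3.19, beside 0.15.

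The 5 homeobox genes with the largest difference in 231K were NKX3-2, NKX2-6, BARX1, NKX2-3 and EN2. NKX3-2 (chr4:13540830-13544508, minus strand) had 40.7% and 40.3% of its region under peaks in WT, 3.01% and 35.8% in 231K, and 39.0% and 19.6% in 232P, so the difference of -21.1 ± 15.4 (SE) came mainly from 231K replicate 1 and was -4.74 without it. BARX1 (chr9:93951627-93955355, minus strand), a gene of stomach and tooth development, had 34.95% and 30.9% in WT, 15.4% and 17.3% in 231K, and 39.3% and 13.3% in 232P, a difference of -16.5 ± 12.6 (SE). For BARX1 the 231K samples lay close together and below WT, and the 232P samples lay on both sides of WT. NKX2-3, a gene of the gut and spleen, had 55.7% and 54.9% in WT, 36.0% and 43.5% in 231K, and 59.3% and 40.9% in 232P. NKX2-6, a gene of the pharynx and heart, had 65.9% and 44.04% in WT, 41.1% and 33.1% in 231K, and 61.2% and 18.0% in 232P.

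On the means of both replicates, the 232P difference was negative for 40 of the 43 homeobox genes and for 89.7% of all genes tested. These shares were nearly the same. The median was -7.47 percentage points over the homeobox genes, beside -10.15 over all genes tested. Both 232P samples lay below both WT samples for 15 of the 43, against 46.3% of all genes, and above both for 0, against 0.874%. Within replicate number 1, which holds the library that stood apart, the homeobox genes had a median difference of -3.42 and all genes one of -10.9. There 27 of the 43 homeobox genes were lower, against 85.1% of all genes tested. Within replicate number 2 the medians were -12.2 and -6.58, with 39 of the 43 lower, against 80.9%. Without 232P replicate 1 the median was -10.49 over the homeobox genes and -3.54 over all genes tested. Whether the homeobox genes changed less or more than the other genes in 232P thus depended on this library. With quantile normalization, which gives all samples the same distribution of values, the homeobox median in 232P was 13.1, beside 0.55 over all genes tested.

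The 5 genes with the largest difference in 232P were BARX2, LMX1A, NKX1-2, BARHL2 and OTX2. This order rested on 232P replicate 1: without it the largest difference among the homeobox genes was -36.9, at NKX2-6, which had 18.0% in 232P replicate 2. BARX2 had 74.6% and 84.3% of its region under peaks in WT, 72.9% and 87.3% in 231K, and 40.8% and 74.4% in 232P, a difference of -21.8 ± 14.1 (SE) in 232P, and LMX1A had 72.9% and 80.8% in WT, 70.8% and 84.7% in 231K, and 38.5% and 73.5% in 232P. For both, 232P replicate 1 was the low sample, and without it the differences were -5.06 and -3.33. NKX1-2 had 60.5% and 54.8% in WT, 41.5% and 52.9% in 231K, and 36.5% and 39.3% in 232P, with both 232P samples low, and the difference of -19.7 ± 9.27 (SE) was -18.3 without 232P replicate 1. BARHL2 had 72.5% and 73.2% in WT, 57.6% and 70.5% in 231K, and 50.1% and 58.2% in 232P, with all Tau-KO samples below WT. OTX2 had 76.6% and 82.2% in WT, 78.2% and 81.7% in 231K, and 52.7% and 69.9% in 232P, and its difference of -18.1 was -9.50 without 232P replicate 1. The adjusted p-values of these 5 genes from limma lay between 0.446 and 0.508.

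**Figure D4:**
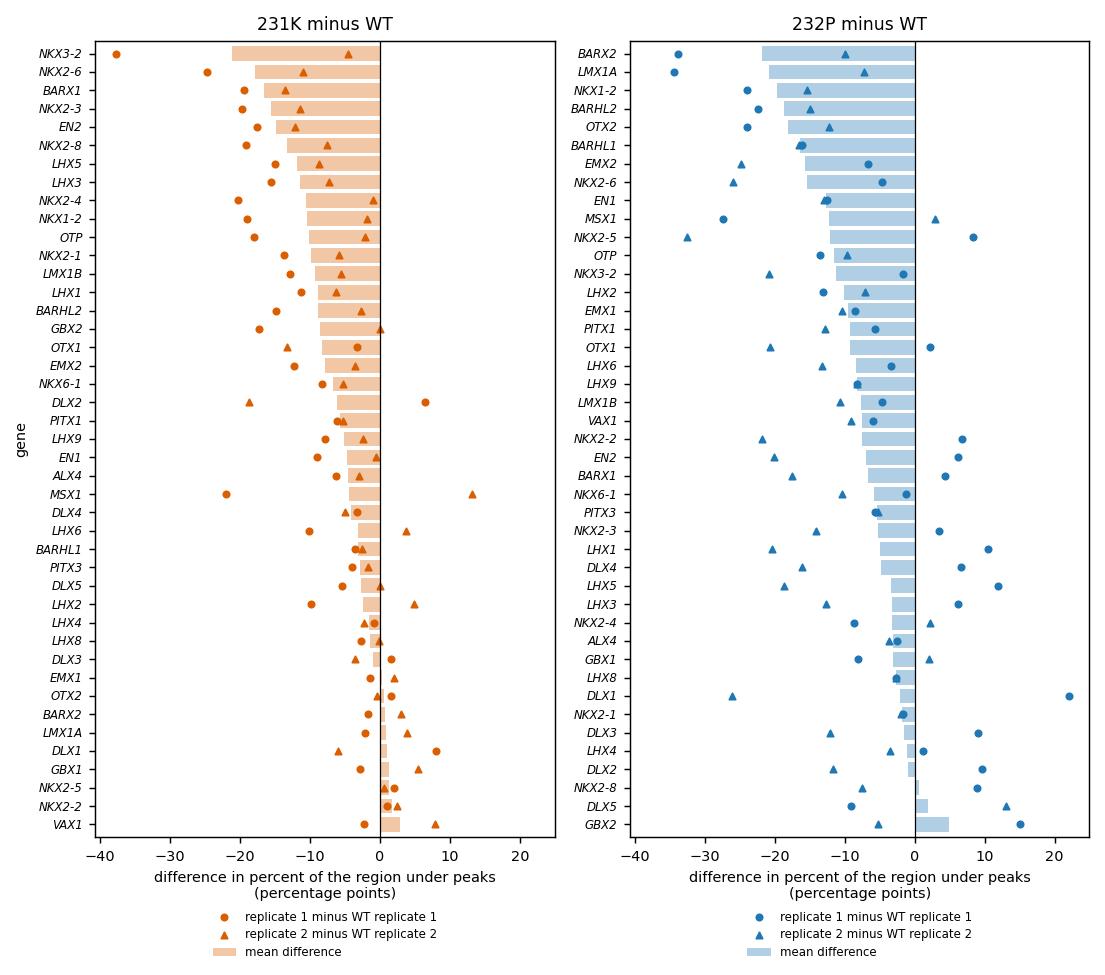
Difference in the percent of the gene region under peaks (percentage points) for the 43 homeobox genes tested, 231K minus WT (left) and 232P minus WT (right). Bars are the mean differences and points the differences within replicate number 1 (circles) and 2 (triangles), and 34 and 40 bars are below 0, with no gene past the test.

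Related genes listed beside the 56 showed marked and free genes as well. Among paralogues of the same families, ISL1, a factor of motor and sympathetic neurons, TLX2 and TLX3 had no peak in any sample. NKX1-1 had a TSS mark in WT replicate 1 alone, over 10.9% of its region. Of the 39 HOX cluster genes, 27 had a TSS mark in all 6 samples and 8 no peak, among them HOXD9, HOXD8, HOXD4, HOXD3 and HOXD1. Of 10 genes for PRC2 subunits, 9 were free of peaks in all samples, EZH1, EZH2, EED and SUZ12 included, and RBBP7, on the X chromosome, had a region mark in 4 samples.

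Genes that neuroblastoma cells use served as a check of the cell type. Among genes of noradrenergic neuroblastoma, PHOX2A, HAND2, GATA2, GATA3, DBH, TH, CHGA, CHGB and STMN2 had no peak in any sample. Of 7 mesenchymal genes, 4 had no peak, COL1A1 and FN1 had a mark in 1 sample each, and PRRX1, a mesenchymal homeobox gene, had a TSS mark in all 6 samples over 37.5% to 86.2% of its region. Of 8 broadly expressed genes, 7 had no peak, and HPRT1, on the X chromosome, had a TSS mark in all 6 samples. None of these lists measures expression in the samples.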

How the data were processed

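The authors aligned trimmed reads to hg38 (BWA), and ran MACS version 2 sample by sample to call peaks. They name a broadPeak setting, while the deposited lists have the 10 narrowPeak columns. The submitters' processing notes also name deepTools. Per the labels, replicates were not pooled. The deposited fold enrichment is a ratio of summit reads over local background, and the deposited -log10 p-values and q-values and the score derived from them depend on depth. The lists hold no read counts, so no counting interval could be given and the precision is limited by the relative depth. The threshold and the control library are not given in the sources used here. Peaks in the 232P lists are named 231P, the name of another Tau-KO line in the paper, and the labels decided the group.

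Genes were taken from GENCODE release 44 on hg38. The percent of the region under peaks (gene and 1 kb on each side of each start) was compared with limma 3.58.1 (lmFit, eBayes with trend, R 4.3.3) over genes with a peak in at least 2 of the 6 samples, with 3 residual degrees of freedom. It replaces the read counts of the study's own test. The homeobox genes and the lists beside them were chosen with earlier results of these data known, and no list was tested. Genes named singly lacked a TSS mark in a sample, lost or gained one, were among the 10 widest, among the 5 with the largest difference in a line, or at either end of fold enrichment. The steps were tested on simulated data. GC content came from hg38 sequence, because the RefSeq table holds 38 of the 56 promoters. Results for some genes of the lists beside the homeobox genes are not reported here.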

Additional observations from a re-analysis of the deposited data

How the results depend on the processing

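Peaks missing from a list may lie under its threshold, and with 2 samples per genotype only large differences could pass a test. The number of genes called in covered percent was 0 in both lines and directions under all alternatives run, limma without any filter could not be fitted, and the added filter at 1 sample called 0 as well. Samples with the same replicate number deviated together over 4808 genes (correlations 0.364, 0.484 and 0.461 for the 3 pairs of genotypes), but with 2 numbers this is only a hint from the data. With the replicate number as a block, 0 genes were called, 241 and 1456 genes had an unadjusted p under 0.05 in 231K and 232P, 2 and 4 of them homeobox genes, and the median differences were the same, -5.15 and -7.47.

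With a minimum -log10 q-value of 5, the homeobox genes with a TSS mark in all samples were 14, those lost 2 in 231K and 2 in 232P, and those gained in 232P 0. With an equal number of strongest peaks, 2 were lost in 231K and 0 gained in 232P. With a window of 2.5 kb, 0 were lost in 231K and 0 gained in 232P, and with any part of the gene 0 were gained in 232P. With 50% of the window covered, 0 were marked in all samples, 42 in none, 1 was lost in 232P and 0 were gained. Leaving out each replicate gave 1 to 3 lost in 231K, 0 to 4 lost in 232P and 1 to 3 gained in 232P. Under quantile normalization the median difference in 232P was 13.1, and the differences of BARX2, LMX1A, NKX1-2, BARHL2 and OTX2 turned to 2.07, 3.11, 4.71, 4.24 and 4.17 percentage points. Over the start site windows only, EN2 in 231K was at 0.40. On the log2 scale of the highest fold enrichment, NKX3-2, NKX2-6, BARX1 and NKX2-3 in 231K were at 0.33, 0.0858, 0.42 and 0.37 and BARX2 in 232P at 0.0264. The causes were not tested. Of 336 values under alternatives, 306 were labelled as kept, by rules that differed with the kind of value. Counts could differ from the main count by a set ratio. Differences of single genes had to keep their direction and their side of the threshold. Medians had to move by less than the spread between replicates. For median differences this spread was 8.16 percentage points, wider than the 231K value of -5.15, so the label could miss a change of sign. The 231K medians in covered percent all stayed negative. The median domain width of the homeobox genes relative to WT was 0.83 in 231K (0.72 to 0.93 under the alternatives) and 0.57 in 232P (0.43 to 0.68).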
